A study of Mus musculus with 18 samples.

Results

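The genes examined here encode splicing factors, the proteins that find splice sites and remove introns from messenger RNA precursors. They were chosen by name as protein-coding mouse genes whose symbol begins with Srsf, Hnrnp, Snrp, Sf3a or Sf3b, without Snrpn. Of 47729 genes in the count tables, 52 met this rule: 11 SR genes (Srsf), 21 hnRNP genes (Hnrnp), 11 Snrp genes and 9 SF3 genes (Sf3a and Sf3b). Another 5 symbols matched the pattern and were left out, namely Snrpn and the pseudogenes Snrpert, Snrp1c-ps1, Snrp1c-ps2 and Hnrnpa1l2-ps. RNA and the histone mark H3K9ac were measured in bulk whole cortex at E15.5, in the middle of neurogenesis. The mice were treated with TSA (trichostatin A), an inhibitor of histone deacetylases, or with Vehicle. Each treatment had 4 RNA libraries and 4 H3K9ac libraries. Every sample carried the BAF155 cKO genotype, a conditional deletion of a core subunit of the BAF chromatin remodelling complex, and no sample without the deletion was analysed, so TSA is set against Vehicle in deleted tissue throughout. The Cre driver, the dose and timing of TSA, and whether replicates came from separate animals are not stated in the labels, and a p-value therefore covers the spread of these libraries alone.

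Introns are removed by the spliceosome, which assembles on each intron from small nuclear ribonucleoprotein particles (snRNPs). The Sm proteins, encoded by Snrpb, Snrpd1, Snrpd2, Snrpd3, Snrpe, Snrpf and Snrpg, close into a ring around the small nuclear RNA of the U1, U2, U4 and U5 particles, while Snrpa and Snrpc encode proteins of U1 alone and Snrpa1 and Snrpb2 proteins of U2. The SF3a and SF3b complexes belong to U2 and hold it on the branch site. SR proteins mostly promote the use of exons they bind, and hnRNP proteins coat nascent transcripts and often act against exon inclusion. Proteins of both families tune alternative splicing in developing neurons.

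Sequenced depth ranged from 6733415 counts in TSA 1 to 20400727 counts in TSA 3. The 4 TSA libraries had 1.48 to 1.71% mitochondrial counts, and the Vehicle libraries 1.60 to 3.36%. Vehicle 1, with 2.86%, and Vehicle 4, with 3.36%, stood apart, and counts are given below with and without them. Xist, the RNA of the inactive X chromosome, was at 1.44 CPM or less in TSA 1, TSA 2 and TSA 3, and at 1788 CPM or more in TSA 4 and all Vehicle libraries, so the sex of the tissue and the treatment can be told apart only through TSA 4. CPM is the count scaled to a common library total, and since it is not divided by transcript length, levels are compared between libraries and not between genes. Smarcc1, which encodes BAF155, had 118 to 144 CPM in TSA libraries and 124 to 148 CPM in Vehicle libraries, and whole-gene counts do not check the deletion because the deleted part is not given. In bulk tissue, fewer cells of a type and less RNA per cell cannot be told apart.

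Of the 52 genes, 51 had enough counts to be tested. The exception was Hnrnpa1l2-ps2, annotated as protein-coding although its symbol marks a pseudogene, with 0 to 9 reads in TSA libraries and 1 to 8 reads in Vehicle libraries. Each gene was tested with edgeR over all 15000 genes with sufficient counts, and a change was called at a Benjamini-Hochberg adjusted p under 0.05. By this rule 9 splicing factor genes rose with TSA, 15 fell and 27 were not called. Of all tested genes, 33.0% were called, 15.4% as rises and 17.6% as falls. The calls were uneven over the classes. Snrp genes had 0 rises and 9 falls among 11, and SF3 genes 5 rises and 1 fall among 9. SR genes had 0 rises and 3 falls among 11, and hnRNP genes 4 rises and 2 falls among 20 tested. The median log2 fold change, TSA minus Vehicle, was -0.57 for Snrp genes, 0.40 for SF3 genes, -0.23 for SR genes, 0.09 for hnRNP genes and -0.01 for all tested genes.

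**Figure D1:**
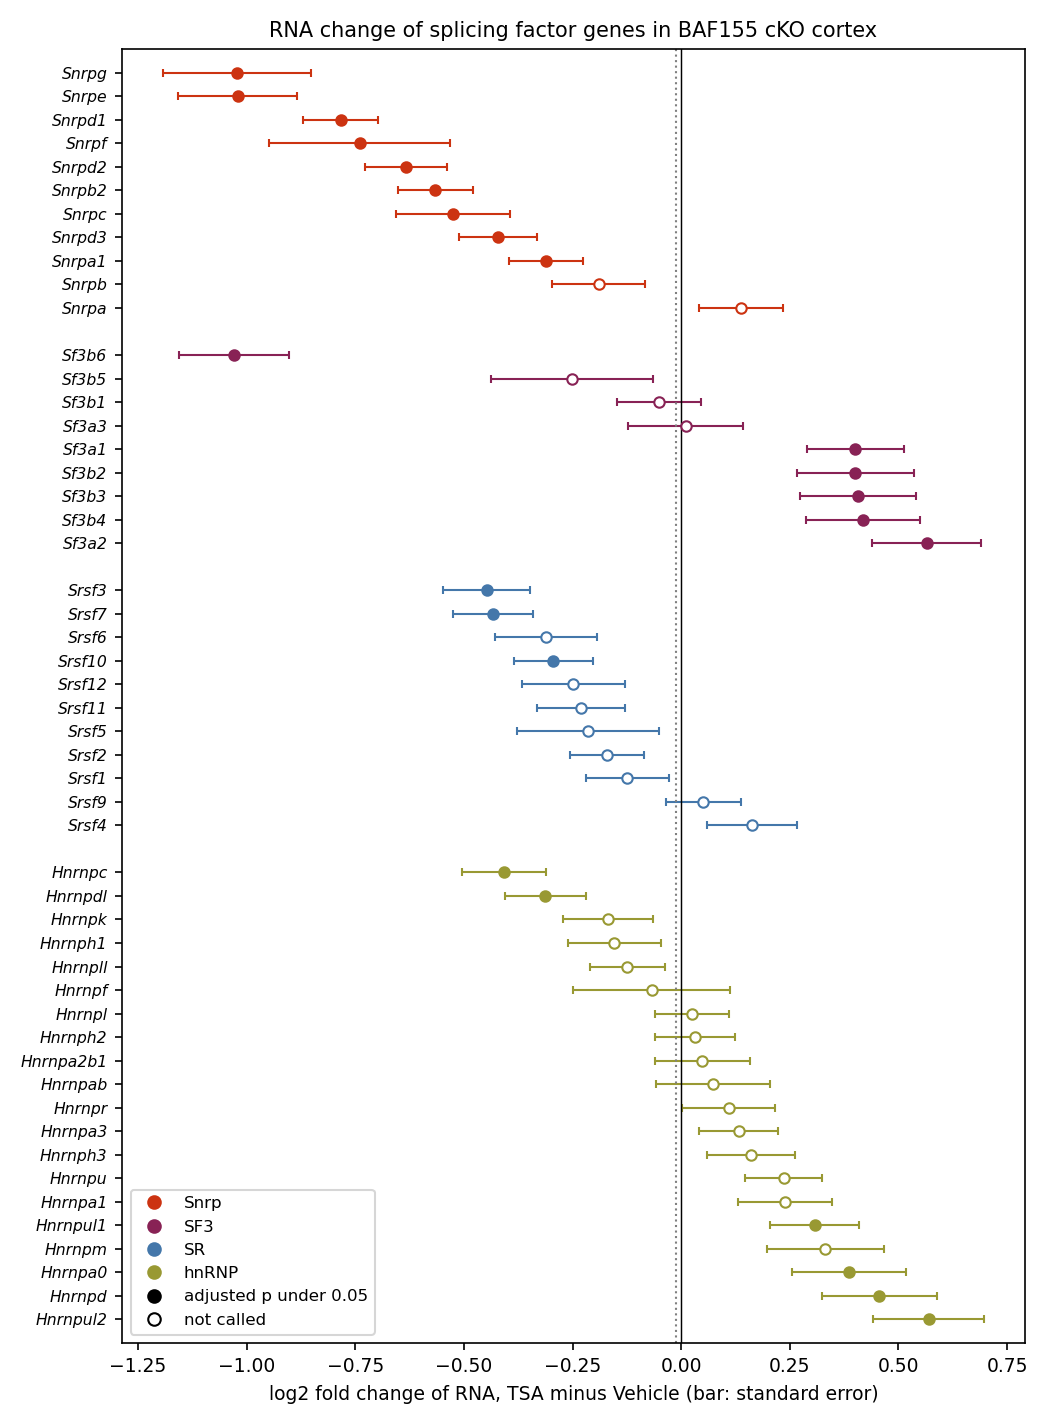
Log2 fold change of RNA (x axis, TSA minus Vehicle) for each of the 51 tested genes, with bars for the standard error of the edgeR estimate, filled points for calls and open points for genes not called. The dotted line is the median of all tested genes, -0.01. Of 11 Snrp points, 10 lie left of 0, while 6 of 9 SF3 points lie right of it.

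Of the 7 Sm ring genes 6 fell, and their median log2 fold change was -0.74. Snrpe, whose product sits in the ring beside those of Snrpf and Snrpg, had 53.5, 57.3, 50.5 and 56.5 CPM in TSA 1 to 4, against 127, 87.2, 90.4 and 137 CPM in Vehicle 1 to 4. The highest TSA library lay below the lowest Vehicle library, and Vehicle 1 and Vehicle 4 were the highest of all. The log2 fold change was -1.02 ± 0.14 (SE, n = 4 each, edgeR adjusted p = 0.00014). Snrpg had 13.7, 13.8, 11.9 and 14.2 CPM in the TSA libraries, against 31.6, 20.1, 21.8 and 35.3 CPM in the Vehicle libraries, a log2 fold change of -1.02 ± 0.17 (edgeR adjusted p = 0.000519). Its groups did not overlap either, and the same 2 Vehicle libraries were highest.

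The promoters of these 2 genes are shown because they were the Sm genes with the lowest fold changes. Each runs from 250 bases before the annotated start to 50 bases after it, in the direction of transcription, from RefSeq on GRCm38.p6, and capitals mark matches to the motifs described further on. The Snrpe promoter lies at chr1:133610231-133610530 on the minus strand and the Snrpg promoter at chr6:86371290-86371589 on the plus strand.
Snrpe: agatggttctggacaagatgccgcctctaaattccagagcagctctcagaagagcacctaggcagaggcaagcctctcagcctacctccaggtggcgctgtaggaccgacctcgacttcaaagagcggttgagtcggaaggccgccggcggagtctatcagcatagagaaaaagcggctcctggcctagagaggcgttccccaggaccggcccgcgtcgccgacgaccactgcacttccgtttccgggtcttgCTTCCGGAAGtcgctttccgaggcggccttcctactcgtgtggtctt
Snrpg: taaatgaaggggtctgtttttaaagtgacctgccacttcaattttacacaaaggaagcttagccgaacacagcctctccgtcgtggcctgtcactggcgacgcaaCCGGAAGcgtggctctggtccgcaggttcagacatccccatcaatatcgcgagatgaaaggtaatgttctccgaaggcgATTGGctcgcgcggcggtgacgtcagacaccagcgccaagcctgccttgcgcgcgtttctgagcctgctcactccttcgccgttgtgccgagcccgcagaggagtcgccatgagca

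Snrpd1, which encodes the D1 protein of the ring, was the most even of the falls within TSA, with 66.2, 67.2, 67.3 and 65.8 CPM in the TSA libraries, against 112, 103, 114 and 129 CPM in the Vehicle libraries. Every TSA library stood far below every Vehicle library. Its log2 fold change was -0.78 ± 0.09 (edgeR adjusted p = 4.2e-05). Snrpd2, whose product pairs with D1, had 41.6, 43.2, 38.4 and 40.4 CPM with TSA, against 66.5, 60.2, 56.3 and 70.8 CPM with Vehicle (log2 fold change -0.63 ± 0.09, edgeR adjusted p = 0.000243). Snrpd3, whose product pairs with that of Snrpb, had 136, 134, 129 and 120 CPM with TSA, against 154, 193, 176 and 174 CPM with Vehicle (log2 fold change -0.42 ± 0.09, edgeR adjusted p = 0.00255). In both, all TSA libraries lay below all Vehicle libraries. Snrpf was low throughout, with 2.74, 4.12, 4.64 and 4.88 CPM in the TSA libraries, against 5.02, 7.54, 7.92 and 7.68 CPM in the Vehicle libraries, and with as few as 18 reads in a library (TSA 1) its change of -0.74 ± 0.21 (edgeR adjusted p = 0.0137) carried the largest error of the class. Its groups came close, since TSA 4 and Vehicle 1 nearly met, and it overlaps Ccdc38 in a library that does not mark strand.

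The Sm gene that was not called was Snrpb, which encodes the B and B' proteins. It had 110, 98.9, 91.0 and 120 CPM in the TSA libraries, against 108, 108, 134 and 129 CPM in the Vehicle libraries, a log2 fold change of -0.19 ± 0.11 (edgeR adjusted p = 0.194). The groups overlapped, with TSA 4 above Vehicle 1 and Vehicle 2. Snrpb and Snrpn encode near-identical proteins, and Snrpn had 713 to 2366 reads in TSA libraries and 1527 to 2036 reads in Vehicle libraries. Snrpe has a pseudogene copy, Snrpert, with 2 to 20 reads in TSA libraries and 7 to 29 reads in Vehicle libraries. Whether the counting split reads within either pair was not tested.

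Both genes of U2 proteins fell. Snrpb2, which encodes U2 B'', had 63.9, 70.3, 69.2 and 65.4 CPM with TSA, against 92.3, 101, 94.4 and 110 CPM with Vehicle (log2 fold change -0.57 ± 0.09, edgeR adjusted p = 0.000275). Snrpa1, which encodes its partner U2 A', had 42.2, 43.5, 41.3 and 45.5 CPM with TSA, against 50.8, 52.2, 57.5 and 53.4 CPM with Vehicle (log2 fold change -0.31 ± 0.08, edgeR adjusted p = 0.0114). Neither gene's groups overlapped. The genes of U1 proteins differed from each other. Snrpc, which encodes U1-C, fell, with 16.3, 15.1, 13.8 and 17.1 CPM in the TSA libraries, against 22.8, 18.0, 22.8 and 25.8 CPM in the Vehicle libraries (log2 fold change -0.53 ± 0.13, edgeR adjusted p = 0.00667). Without Vehicle 1 and Vehicle 4 the fall of Snrpc was not called, and it was the only Snrp fall lost there. Snrpa, which encodes U1-A, was the only Snrp gene with a positive estimate, with 49.4, 52.8, 48.6 and 54.4 CPM in the TSA libraries, against 44.2, 45.7, 54.3 and 42.4 CPM in the Vehicle libraries (log2 fold change 0.14 ± 0.10, edgeR adjusted p = 0.302). Its groups overlapped through Vehicle 3 alone.

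Every TSA library lay below every Vehicle library in all 9 Snrp falls and in no other of the 11 Snrp genes. This separation was found in 17.4% of all tested genes. With Xist status as a covariate, which leaves the treatment effect to TSA 4 against the Vehicle libraries, 5 of 11 Snrp genes were called as falls (Snrpe, Snrpd1, Snrpd2, Snrpb2 and Snrpd3), while 10.5% of all tested genes were called in either direction. That TSA 4 lay below all 4 Vehicle libraries in each of the 9 genes follows from the separation above. So does the place of all 4 TSA libraries below Vehicle 2 and Vehicle 3, and neither is a further check.

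**Figure D2:**
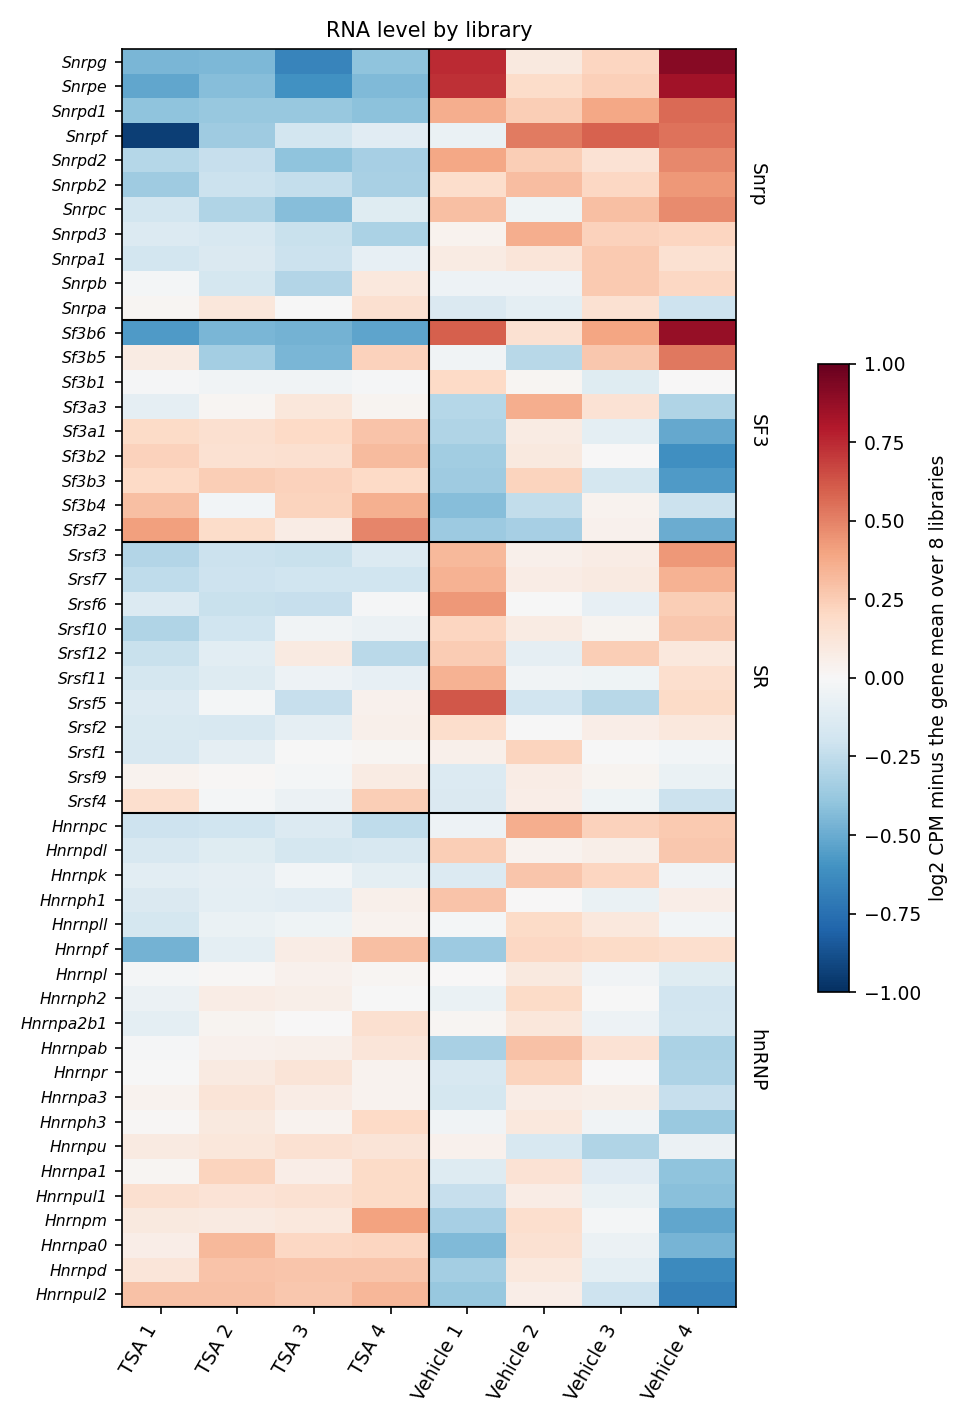
Level of each tested gene by library, as log2 CPM minus the gene's mean over the 8 RNA libraries. Rows are genes in the order of their fold change within a class, the left 4 columns are TSA libraries and the right 4 Vehicle libraries, and the colour scale stops at -1 and 1. Blue on the left and red on the right across most Snrp rows marks the 9 falls, and Vehicle 1 and Vehicle 4 hold the deepest blue among rising SF3 and hnRNP genes.

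Of the 9 SF3 genes, whose products also belong to U2, 5 rose and 1 fell. The fall was that of Sf3b6, which encodes the small SF3b protein that sits at the branch site adenosine. It had 61.3, 65.9, 65.2 and 62.9 CPM in the TSA libraries, against 137, 101, 119 and 165 CPM in the Vehicle libraries. The 4 TSA values were nearly equal, and each lay far below the lowest Vehicle library. The log2 fold change of -1.03 ± 0.13 (edgeR adjusted p = 7.33e-05) was the lowest of the 51 tested genes. Sf3a2, which encodes the SF3a66 protein, had the highest fold change of the class, with 69.2, 59.3, 55.0 and 73.2 CPM in the TSA libraries, against 40.6, 41.4, 53.9 and 37.0 CPM in the Vehicle libraries (log2 fold change 0.57 ± 0.13, edgeR adjusted p = 0.00334). Its groups did not overlap, but TSA 3 and Vehicle 3 were close.

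The promoters of Sf3b6 and Sf3a2 are shown as the lowest and the highest fold change among the SF3 genes. They lie at chr12:4817358-4817657 and chr10:80798485-80798784, both on the plus strand, and are taken and marked as above.
Sf3b6: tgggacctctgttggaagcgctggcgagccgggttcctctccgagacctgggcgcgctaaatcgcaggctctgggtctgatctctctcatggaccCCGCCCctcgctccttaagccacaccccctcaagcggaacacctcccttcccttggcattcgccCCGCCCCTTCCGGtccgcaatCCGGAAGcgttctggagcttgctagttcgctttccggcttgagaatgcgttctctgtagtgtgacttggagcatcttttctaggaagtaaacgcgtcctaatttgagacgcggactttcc
Sf3a2: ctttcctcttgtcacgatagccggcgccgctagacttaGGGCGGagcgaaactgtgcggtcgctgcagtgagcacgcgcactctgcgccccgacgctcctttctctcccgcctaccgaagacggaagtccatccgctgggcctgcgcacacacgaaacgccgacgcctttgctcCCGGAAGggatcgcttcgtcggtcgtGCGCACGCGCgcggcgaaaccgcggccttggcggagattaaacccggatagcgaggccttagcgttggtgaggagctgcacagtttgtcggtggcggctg

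The other 4 SF3 rises were Sf3a1, Sf3b2, Sf3b3 and Sf3b4, with log2 fold changes of 0.40 to 0.42. Sf3a1, the SF3a120 gene, had 237, 232, 238 and 253 CPM with TSA, against 168, 219, 194 and 145 CPM with Vehicle (log2 fold change 0.40 ± 0.11, edgeR adjusted p = 0.0133). Sf3b2, the SF3b145 gene, had 452, 429, 431 and 481 CPM with TSA, against 303, 414, 388 and 253 CPM with Vehicle (log2 fold change 0.40 ± 0.13, edgeR adjusted p = 0.0329). In both, Vehicle 2 came nearest to the TSA libraries while Vehicle 1 and Vehicle 4 were lowest. Sf3b3, the SF3b130 gene, had 298, 307, 305 and 298 CPM with TSA, against 203, 304, 229 and 175 CPM with Vehicle (log2 fold change 0.41 ± 0.13, edgeR adjusted p = 0.031), and it overlaps Cog4. Sf3b4, the SF3b49 gene, had 21.2, 16.9, 20.2 and 22.0 CPM with TSA, against 12.9, 14.5, 17.6 and 14.9 CPM with Vehicle (log2 fold change 0.42 ± 0.13, edgeR adjusted p = 0.0241). The groups of Sf3b3 overlapped through Vehicle 2, and those of Sf3b4 through TSA 2 and Vehicle 3.

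Sf3b1, which encodes the largest SF3b protein, the clamp on the branch site, had 708, 694, 694 and 707 CPM in the TSA libraries, against 816, 720, 655 and 714 CPM in the Vehicle libraries (log2 fold change -0.05 ± 0.10, edgeR adjusted p = 0.727). Sf3a3 and Sf3b5 were not called either, with log2 fold changes of 0.01 ± 0.13 and -0.25 ± 0.19 (edgeR adjusted p = 0.962 and 0.334). The SF3 rises depended on which libraries were kept. Without Vehicle 1 and Vehicle 4, 1 of the 5 rises was called, that of Sf3a2, and the class median was 0.16. With Vehicle 1 or Vehicle 4 left out alone, 2 rises were called. With TSA 1, TSA 2, TSA 3 or TSA 4 left out alone, 2, 3, 3 and 2 were called. Of all tested genes, 30.2% were called without Vehicle 1 and Vehicle 4, against 33.0% with all libraries. With 1 library left out, the share was between 25.1% (without TSA 1) and 36.7% (without Vehicle 2). The fall of Sf3b6 was called under every alternative tried, with an adjusted p of at most 0.0146.

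Among SR genes 3 fell. Srsf3, which encodes the smallest SR protein, an exporter of messenger RNA as well as a splicing factor, had 264, 278, 277 and 294 CPM in the TSA libraries, against 405, 335, 341 and 437 CPM in the Vehicle libraries (log2 fold change -0.45 ± 0.10, edgeR adjusted p = 0.00361). Srsf7, its close relative, had 269, 277, 279 and 279 CPM with TSA, against 407, 337, 341 and 407 CPM with Vehicle (log2 fold change -0.43 ± 0.09, edgeR adjusted p = 0.00254). In both genes the groups did not overlap, and Vehicle 1 and Vehicle 4 were the highest libraries. Srsf10 had 102, 109, 122 and 121 CPM with TSA, against 146, 133, 128 and 151 CPM with Vehicle (log2 fold change -0.29 ± 0.09, edgeR adjusted p = 0.0224). Its groups did not overlap, but its fall was not called without Vehicle 4, without either of TSA 1 and TSA 2, without Vehicle 1 and Vehicle 4 together, with an Xist covariate or with the span trend removed. In the fit that left out Vehicle 1 and Vehicle 4 there were 2 SR falls, those of Srsf3 and Srsf7, and the class median was -0.12. Without Vehicle 1 alone it was -0.15, against -0.23 with all libraries.

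The Srsf3 promoter, at chr17:29032410-29032709 on the plus strand, is shown for the SR gene with the lowest fold change and is the only printed promoter with a TATAAA match.
Srsf3: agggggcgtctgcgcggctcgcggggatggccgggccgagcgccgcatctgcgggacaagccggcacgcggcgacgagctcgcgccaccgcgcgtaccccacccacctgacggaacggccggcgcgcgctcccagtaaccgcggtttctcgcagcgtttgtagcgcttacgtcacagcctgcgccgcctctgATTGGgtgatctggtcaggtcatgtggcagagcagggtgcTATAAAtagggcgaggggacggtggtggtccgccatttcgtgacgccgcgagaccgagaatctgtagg

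The remaining 8 SR genes were not called. Srsf6 came nearest, with 457, 432, 428 and 498 CPM in the TSA libraries, against 680, 502, 474 and 596 CPM in the Vehicle libraries (log2 fold change -0.31 ± 0.12, edgeR adjusted p = 0.0563). TSA 4 lay above Vehicle 3. Srsf11 had a log2 fold change of -0.23 ± 0.10 (edgeR adjusted p = 0.0961) with every TSA library below every Vehicle library, and Srsf12 one of -0.25 ± 0.12 (edgeR adjusted p = 0.124). Srsf1, the founding member of the family, had 539, 566, 602 and 611 CPM in the TSA libraries, against 627, 706, 602 and 592 CPM in the Vehicle libraries (log2 fold change -0.12 ± 0.10, edgeR adjusted p = 0.358). Of the 11 SR genes, 9 had negative and 2 positive estimates. Without Vehicle 2, the number of SR falls was 6, and 36.7% of all tested genes were called, against 33.0% with all libraries. With Xist status as a covariate, which rests on TSA 4, the SR class median was -0.18.

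The hnRNP genes changed in both directions. Hnrnpul2, an hnRNP U-like gene, had 391, 392, 386 and 401 CPM in the TSA libraries, against 246, 335, 276 and 200 CPM in the Vehicle libraries (log2 fold change 0.57 ± 0.13, edgeR adjusted p = 0.00349). Hnrnpd, which encodes the AU-rich element binding protein AUF1, had 422, 471, 469 and 470 CPM with TSA, against 306, 418, 362 and 249 CPM with Vehicle (log2 fold change 0.46 ± 0.13, edgeR adjusted p = 0.0163). In both genes every TSA library lay above every Vehicle library, although for Hnrnpd TSA 1 and Vehicle 2 nearly met. Separation in this direction was found in 14.9% of all tested genes. Hnrnpa0 had 425, 508, 470 and 471 CPM with TSA, against 299, 451, 390 and 294 CPM with Vehicle (log2 fold change 0.39 ± 0.13, edgeR adjusted p = 0.0356). Hnrnpul1, the other U-like gene, had 255, 251, 253 and 261 CPM with TSA, against 195, 241, 218 and 171 CPM with Vehicle (log2 fold change 0.31 ± 0.10, edgeR adjusted p = 0.0315). The groups of Hnrnpa0 overlapped through TSA 1 and Vehicle 2, and those of Hnrnpul1 did not overlap.

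The Hnrnpd promoter is shown for its 3 GGGCGG matches in a row and lies at chr5:99978889-99979188 on the minus strand.
Hnrnpd: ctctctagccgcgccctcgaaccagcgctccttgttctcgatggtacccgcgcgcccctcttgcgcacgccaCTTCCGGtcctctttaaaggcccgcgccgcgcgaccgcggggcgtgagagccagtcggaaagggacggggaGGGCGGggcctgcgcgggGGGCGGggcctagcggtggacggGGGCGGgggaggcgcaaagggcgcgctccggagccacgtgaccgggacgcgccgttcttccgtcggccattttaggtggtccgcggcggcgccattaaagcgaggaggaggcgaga

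Falls were called for Hnrnpc and Hnrnpdl. Hnrnpc, whose product binds uridine tracts and packages nascent transcripts, had 280, 281, 294 and 271 CPM in the TSA libraries, against 311, 414, 379 and 388 CPM in the Vehicle libraries (log2 fold change -0.41 ± 0.10, edgeR adjusted p = 0.00519). Hnrnpdl, a close relative of Hnrnpd, had 523, 537, 517 and 522 CPM with TSA, against 694, 600, 608 and 704 CPM with Vehicle (log2 fold change -0.31 ± 0.09, edgeR adjusted p = 0.0189), and it overlaps Enoph1. Neither gene's groups overlapped. Hnrnpd and Hnrnpdl, which lie near each other on chromosome 5, were thus called in opposite directions. The hnRNP genes with the highest counts were not called. Hnrnpa2b1, whose product also sorts RNA to neuronal processes, had 1591, 1731, 1704 and 1903 CPM with TSA, against 1722, 1838, 1644 and 1499 CPM with Vehicle (log2 fold change 0.05 ± 0.11, edgeR adjusted p = 0.778). Hnrnph1, which binds G tracts, had 1011, 1041, 1035 and 1155 CPM with TSA, against 1361, 1121, 1067 and 1170 CPM with Vehicle (log2 fold change -0.15 ± 0.11, edgeR adjusted p = 0.301). Their groups overlapped. The other 12 hnRNP genes not called had log2 fold changes between -0.17 and 0.33.

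The 4 hnRNP rises were sensitive to the libraries used. Without Vehicle 1 and Vehicle 4, of the 4 rises that of Hnrnpul2 alone remained called, and a rise of Hnrnpu, named here after its values were seen, was called as well. The falls changed too, since that of Hnrnpdl was lost. A fall of Hnrnpk, also named after its values were seen, was called instead, with a log2 fold change of -0.33. Without Vehicle 4 alone, or without any of TSA 1, TSA 2, TSA 3 and TSA 4, 2 rises were called, those of Hnrnpd and Hnrnpul2. Without Vehicle 1 there were 3, those of Hnrnpd, Hnrnpul2 and Hnrnpu, and without Vehicle 2 there were 6. The class median was -0.02 without Vehicle 1 and Vehicle 4, 0.01 without Vehicle 4 alone and 0.19 without Vehicle 2, against 0.09 with all libraries, so its sign was not stable. The falls numbered 1 without any of TSA 1 to 4, Hnrnpdl being the fall lost. Over all 4 classes, 3 rises were called without Vehicle 1 and Vehicle 4, against 9 with all libraries. Of all tested genes, 30.2% were called in that fit, 25.6% without Vehicle 4 alone and 36.7% without Vehicle 2.

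The contrast between snRNP and the other genes was largest for the Snrp class. The median log2 fold change of Snrp genes minus that of SR and hnRNP genes together was -0.59, and with SF3 genes counted among the snRNP genes it was -0.31. A class score was computed for each library as the median, over a class, of each gene's log2 CPM minus its mean over the 8 libraries. The Snrp score was -0.29, -0.23, -0.29 and -0.32 in TSA 1 to 4, against 0.18, 0.18, 0.24 and 0.47 in Vehicle 1 to 4. The score of SR and hnRNP genes together was -0.10, -0.02, 0.00 and 0.04 in the TSA libraries, against -0.04, 0.08, -0.01 and -0.06 in the Vehicle libraries. The Snrp score thus separated the groups and that of the SR and hnRNP genes did not. The Snrp score minus that of SR and hnRNP genes was between -0.36 and -0.19 in the TSA libraries and between 0.11 and 0.53 in the Vehicle libraries, with Vehicle 4 the highest. Taken alone, the SR score also separated the groups, at -0.16 to -0.01 in TSA libraries and 0.03 to 0.25 in Vehicle libraries. The scores of SF3 and hnRNP genes overlapped between the groups, and in both classes Vehicle 1 and Vehicle 4 were the lowest libraries. No p is given for these scores, since the genes were chosen with results known. Summed over the class, Snrp transcripts made up 565 to 604 CPM in TSA libraries, against 796 to 914 CPM in Vehicle libraries.

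**Figure D3:**
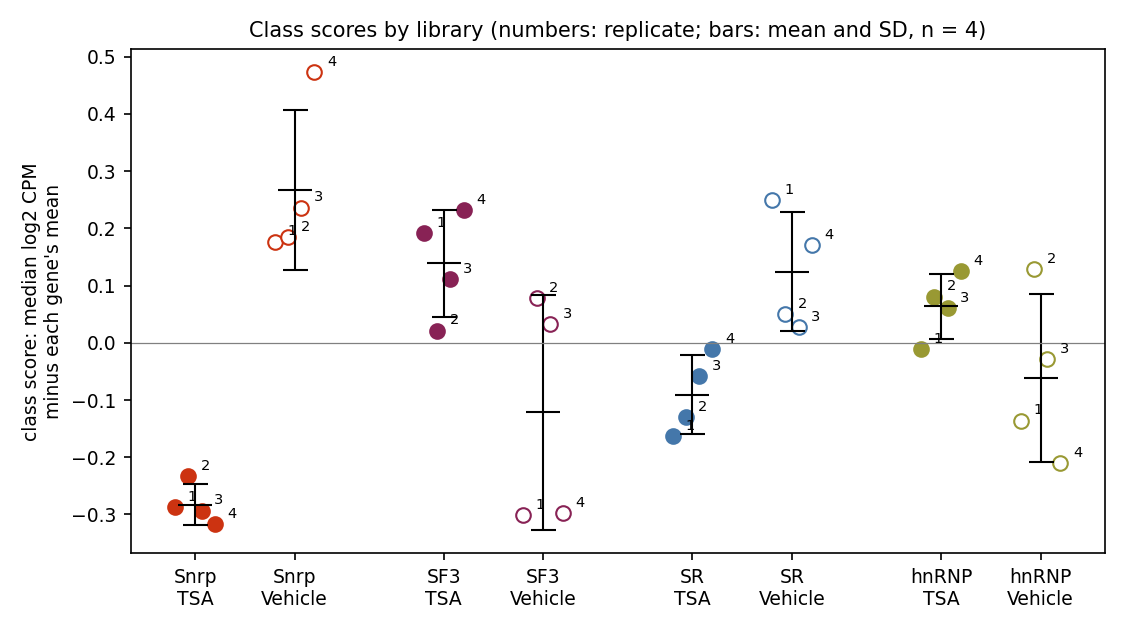
Class score (y axis, median over the class of log2 CPM minus each gene's mean over the 8 libraries) for the Snrp, SF3, SR and hnRNP classes, with TSA libraries as filled and Vehicle libraries as open points. Numbers are replicates, and bars give the mean and SD of 4 libraries. Snrp scores are between -0.32 and -0.23 in TSA libraries and between 0.18 and 0.47 in Vehicle libraries, while SF3 and hnRNP scores overlap.

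Gene size moved with the changes over the whole transcriptome, but unevenly between libraries. The slope of log2 CPM, minus each gene's mean, over log10 span was 0.08, 0.12, 0.16 and 0.03 in TSA 1 to 4. It was -0.16, 0.05, -0.07 and -0.20 in Vehicle 1 to 4. Vehicle 2 thus lay above TSA 4, and Vehicle 1 and Vehicle 4 were the lowest libraries. Over all tested genes with a RefSeq span, the median log2 fold change was -0.22 for genes under 5 kb, -0.10 for 5 to 10 kb, -0.07 for 10 to 20 kb, -0.01 for 20 to 40 kb and 0.11 for genes over 40 kb. The median span was 8984 bp for Snrp genes, 17563 bp for SF3 genes, 7290 bp for SR genes, 12968 bp for hnRNP genes and 24198 bp for all tested genes. Within the span classes below 20 kb, the median of the Snrp genes lay lower than that of all tested genes. Of 6 Snrp genes of 5 to 10 kb, 4 fell and the median was -0.65. All 4 Snrp genes of 10 to 20 kb fell, with a median of -0.47. Falls were called for 24.5% of all tested genes of 5 to 10 kb and 23.0% of those of 10 to 20 kb. In the same span classes the 5 and 2 SR genes had medians of -0.21 and -0.37, and the 6 and 6 hnRNP genes medians of 0.06 and 0.08. Across the 51 genes, the log2 fold change and log10 span had a Pearson's r of 0.24 and a Spearman's rho of 0.25, given as a description, since the genes share the same libraries. After the linear trend over span was removed from each library, limma called 9 Snrp falls and 33.8% of the 14035 genes with a span. The class median was -0.44, against -0.57 in the main fit. The part of span in the Snrp falls was not tested.

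**Figure D4:**
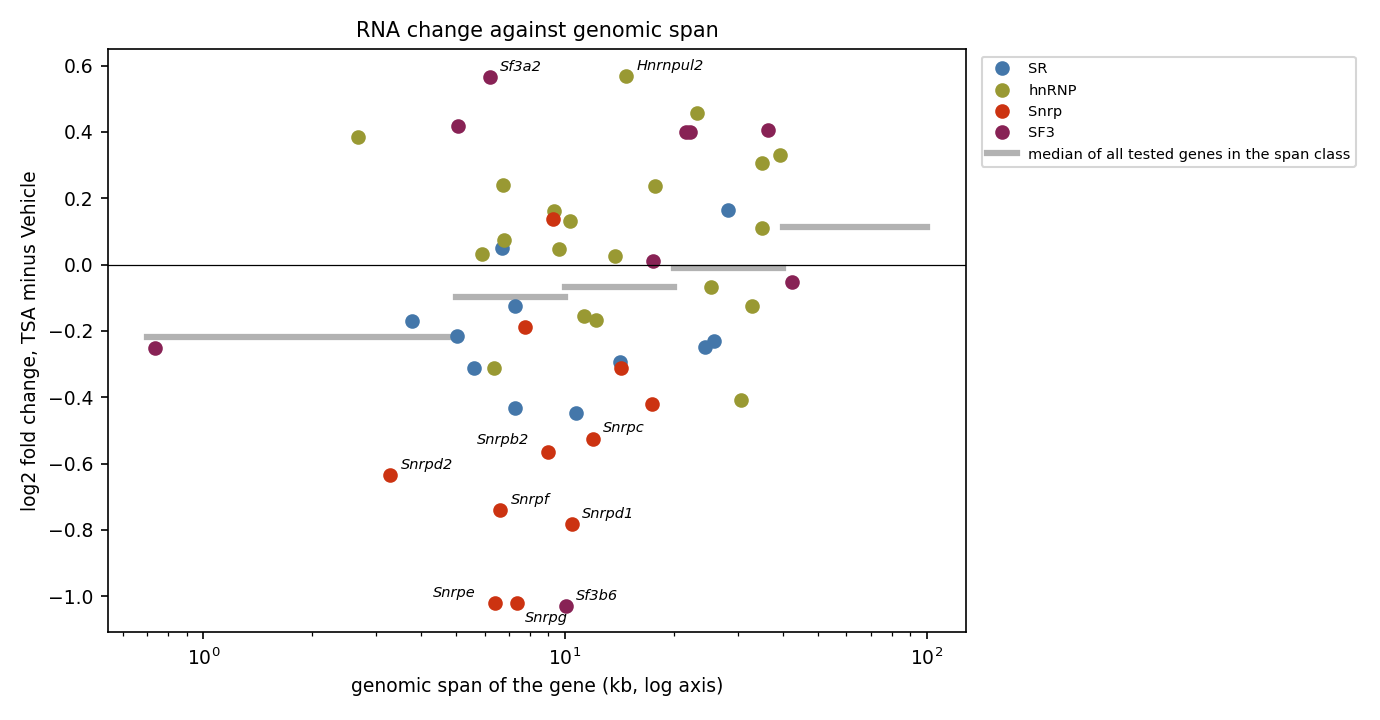
Log2 fold change of RNA (y axis, TSA minus Vehicle) against the genomic span of each of the 51 tested genes (x axis, kb, log scale). Grey bars are medians of all tested genes in each span class, -0.22 under 5 kb and 0.11 over 40 kb. Snrpe, Snrpg and Sf3b6 are the lowest points, at -1.02, -1.02 and -1.03.

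Other genes of the splicing machinery were examined in 7 lists of 112 genes, of which 110 were tested. Together they had 22 rises and 22 falls, beside rises in 15.4% and falls in 17.6% of all tested genes. LSm and Sm-like genes had 0 rises and 7 falls among 10, with a median log2 fold change of -0.48. Apart from Lsm10, which fell, and Lsm11, which was not called, their products form Sm-like rings on U6 RNA or on decaying messenger RNA. Lsm3, a subunit of both LSm rings, had 21.6, 23.4, 20.2 and 22.8 CPM with TSA, against 43.5, 37.5, 41.3 and 45.5 CPM with Vehicle (log2 fold change -0.93 ± 0.10, edgeR adjusted p = 3.94e-05). Lsm8, which marks the nuclear ring, had a log2 fold change of -0.52 ± 0.08 (edgeR adjusted p = 0.000404). Genes of the SMN complex and of Sm ring assembly had 1 rise and 6 falls among 12 tested. Clns1a, which encodes the Sm chaperone pICln, had 63.4, 70.3, 79.3 and 77.9 CPM with TSA, against 115, 120, 122 and 134 CPM with Vehicle (log2 fold change -0.75 ± 0.09, edgeR adjusted p = 7.71e-05). Gemin7 also fell, with a log2 fold change of -0.67 ± 0.13 (edgeR adjusted p = 0.00146). The rise was that of Gemin5, the subunit that recognises the small nuclear RNA, at 0.41 ± 0.09 (edgeR adjusted p = 0.00232).

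Proteins of the U particles outside the Sm and SF3 names had 4 rises and 5 falls among 13. Snrnp27, of the U4/U6.U5 particle, had a log2 fold change of -0.75 ± 0.10 (edgeR adjusted p = 9.17e-05). Snrnp200, the Brr2 helicase that unwinds U4 from U6, had 393, 407, 379 and 390 CPM with TSA, against 232, 292, 244 and 175 CPM with Vehicle (log2 fold change 0.73 ± 0.13, edgeR adjusted p = 0.00058). Phf5a, a further small SF3b subunit, also fell, with a log2 fold change of -0.47 ± 0.09 (edgeR adjusted p = 0.00136). Genes of the PRP19 complex and the catalytic core had 6 rises and 2 falls among 22. The falls were those of Prpf38a, a protein of the spliceosome before activation, at -0.74 ± 0.09 (edgeR adjusted p = 7.07e-05), and of the PRP19 complex subunit Bcas2, at -0.69 ± 0.09 (edgeR adjusted p = 0.000146). Prpf8, the protein at the heart of the catalytic core, rose by 0.53 ± 0.13 on the log2 scale (edgeR adjusted p = 0.00518).

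The remaining lists held regulators. U2AF and its partners in splice site recognition had 2 rises and 0 falls among 12, namely Sf1, the branch point binding protein, at a log2 fold change of 0.41 ± 0.09 (edgeR adjusted p = 0.00407), and Rbm25, at 0.30 ± 0.09 (edgeR adjusted p = 0.0233). SR protein kinases and SR-related proteins had 2 rises and 1 fall among 16 tested. Srrm4, which drives the inclusion of neuronal microexons, had 351, 341, 317 and 360 CPM with TSA, against 206, 195, 151 and 158 CPM with Vehicle (log2 fold change 0.95 ± 0.11, edgeR adjusted p = 5.3e-05). Tra2b fell, with a log2 fold change of -0.50 ± 0.09 (edgeR adjusted p = 0.000967). Neural and tissue-specific regulators had 7 rises and 1 fall among 25. Nova2 had 233, 229, 204 and 206 CPM with TSA, against 121, 148, 117 and 101 CPM with Vehicle (log2 fold change 0.84 ± 0.11, edgeR adjusted p = 0.000104). Rbfox1, a regulator of neuronal exons, had a log2 fold change of 0.84 ± 0.12 (edgeR adjusted p = 0.000243), and the fall was that of Khdrbs3, at -0.29 ± 0.09 (edgeR adjusted p = 0.0277).

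Cell type markers also moved with the treatment. All 6 markers of excitatory cortical neurons rose, their summed level being 2304 to 2790 CPM in TSA libraries and 1285 to 1875 CPM in Vehicle libraries. All 6 markers of inhibitory neurons and the ganglionic eminence fell, at 363 to 561 CPM in TSA libraries and 833 to 1034 CPM in Vehicle libraries. Basal progenitor markers had 3 rises among 5, at 575 to 686 CPM in TSA libraries and 232 to 366 CPM in Vehicle libraries. Apical progenitor markers had 3 rises and 1 fall among 6, at 1071 to 1212 CPM in TSA libraries and 897 to 1317 CPM in Vehicle libraries. Among markers of cells from outside the neural lineage, 3 of 6 microglial, 2 of 5 erythroid and 1 of 5 endothelial genes fell. Microglial markers summed to 27.7 to 38.8 CPM in TSA libraries and 35.3 to 49.6 CPM in Vehicle libraries, and erythroid markers to 124 to 174 CPM in TSA libraries and 186 to 460 CPM in Vehicle libraries. Endothelial markers summed to 96.2 to 124 CPM in TSA libraries and 92.0 to 157 CPM in Vehicle libraries. None of these markers was at 0 in all libraries, and their part in the changes of splicing factor genes was not tested.

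H3K9ac, a mark of active promoters, was read from the authors' peak lists, 1 per library. The lists held 32248 to 61217 peaks in TSA libraries and 22668 to 43645 peaks in Vehicle libraries. The annotated start was known for 46 of the 52 genes. Of these, 45 had a peak within 1 kb of a start in all 8 lists, which was the case for 70.5% of 10515 protein-coding genes tested for RNA with a known start. The exception was Hnrnpa1l2-ps2, with no such peak in any list. Every Snrp, SF3 and SR gene with a known start thus carried a peak with TSA and with Vehicle, whether its RNA rose, fell or was not called. With only peaks of a -log10 q of at least 5, 37 of the 46 genes had one in all 8 lists, against 46.6% of the 10515 genes. These were all 11 SR genes, 6 of 7 SF3, 14 of 19 hnRNP and 6 of 9 Snrp genes, so the statement on Snrp and SF3 genes does not hold at this q.

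The length of DNA under peaks within 1 kb of the first listed start differed between classes. The class median was 807 to 1007 bp in TSA lists and 588 to 1004 bp in Vehicle lists for 9 Snrp genes. It was 893 to 1228 bp in TSA lists and 831 to 1172 bp in Vehicle lists for 7 SF3 genes. It was 952 to 1576 bp in TSA lists and 860 to 1595 bp in Vehicle lists for 11 SR genes, and 938 to 1614 bp in TSA lists and 930 to 1388 bp in Vehicle lists for 19 hnRNP genes. The hnRNP class here included Hnrnpf and Hnrnpa1l2-ps2, each with 0 bp at its first listed start in every list. Over all 10515 genes it was 529 to 975 bp in TSA lists and 374 to 833 bp in Vehicle lists. The Snrp median was below those of the SR and hnRNP genes in 8 of 8 lists. In each of these classes some windows also held the start of another gene. Examples are Cbx3 at Hnrnpa2b1, Cbx5 at Hnrnpa1, Mfsd11 at Srsf2 and Gucd1 at Snrpd3. The part of such starts in the lengths was not tested. The lengths move with how much was called in a list, Vehicle 4 and TSA 3 having the fewest peaks and the lowest class medians of their groups. Snrpe had 864, 749, 790 and 708 bp under peaks in the TSA lists, against 1086, 1057, 871 and 588 bp in the Vehicle lists. Sf3b6 had 1200, 971, 809 and 1281 bp in the TSA lists, against 1130, 1040, 953 and 868 bp in the Vehicle lists. The groups overlapped in both genes. At the first listed start, only Snrpa of the 46 genes had more DNA under peaks in all 4 TSA lists than in any Vehicle list. It had 702, 849, 840 and 883 bp in the TSA lists, against 683, 485, 595 and 252 bp in the Vehicle lists. Such a separation was found in 1.07% of the 10515 genes, and the opposite in 0.105% of them and in 0 of the 46. Over all listed starts of Snrpa the groups overlapped. The lengths were then 1213, 849, 1270 and 1394 bp in the TSA lists, against 1106, 805, 820 and 436 bp in the Vehicle lists. The start of BC024978 lies within 1 kb of a listed start of Snrpa.

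**Figure D5:**
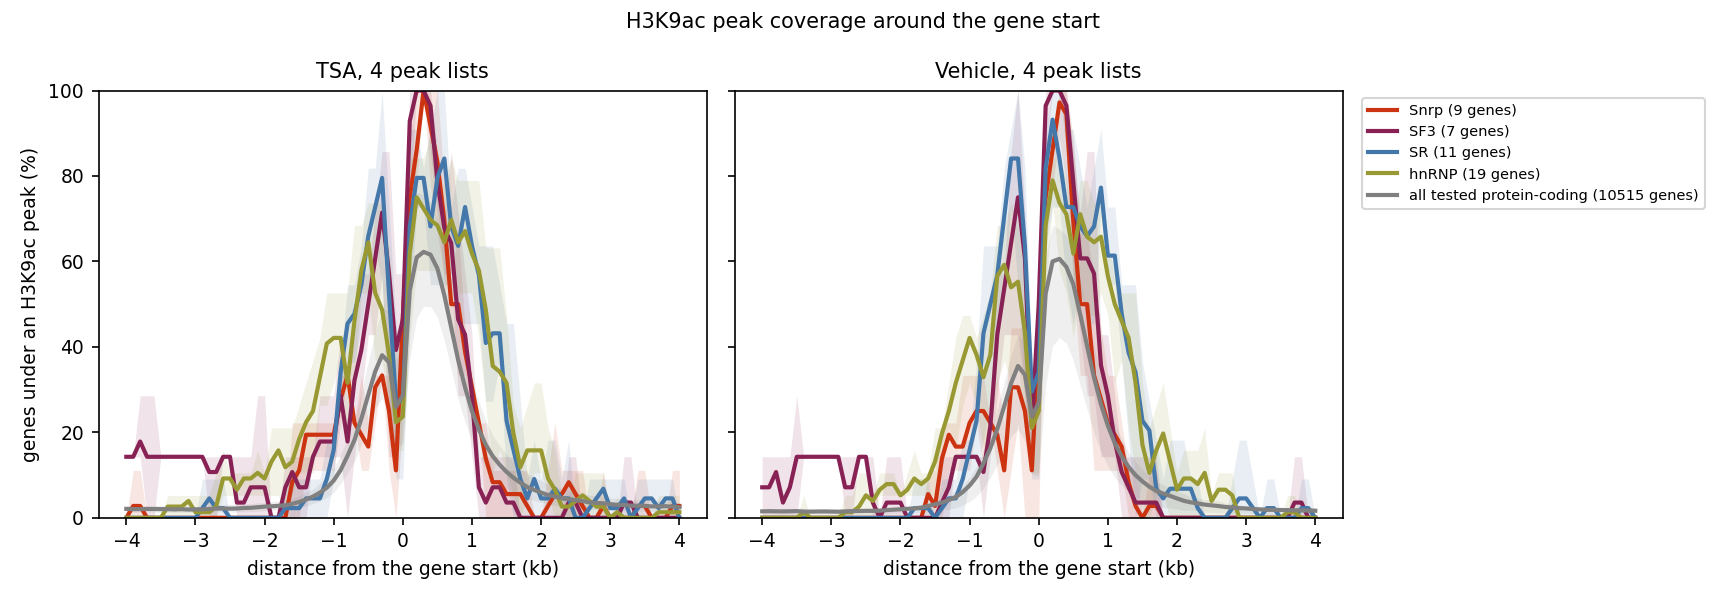
Share of genes under an H3K9ac peak (y axis, %) against distance from the first listed start (x axis, kb, negative before the start), for each class and for all 10515 protein-coding genes, in TSA lists on the left and Vehicle lists on the right. Lines are means over 4 peak lists and bands their lowest and highest list. In both panels the Snrp line falls off closer to the start than the SR and hnRNP lines, and a dip marks the start itself.

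The promoters printed above were searched, with those of the other members, for 6 short motifs on both strands. Promoters of 300 bases were available for 45 of the 51 tested genes. A form of the site of ETS factors, CCGGAAG, was found in 4 of 9 Snrp promoters and 6 of 7 SF3 promoters, against 4 of 11 SR and 2 of 18 hnRNP promoters, and in 8.86% of the 32851 promoters of the table. In Snrpe it was read on both strands just after the start, with first bases at positions 3 and 6 where 0 is the start, and the matches overlap each other. In Snrpg it began at position -145, in Sf3b6 at -85 and -70, and in Sf3a2 at -76. Sf3b6, which fell, and Sf3a2, which rose, both held it. The CCAAT box was found in 12 of 18 hnRNP promoters, 4 of 11 SR, 3 of 9 Snrp and 2 of 7 SF3 promoters, and in 37.4% of all. The SP1 GC box, GGGCGG, was found in 10 of 11 SR, 13 of 18 hnRNP, 5 of 9 Snrp and 4 of 7 SF3 promoters, and in 35.7% of all. A form of the NRF1 site, made of GCGC and GCGC with any 2 bases between, was found in 2 of 9 Snrp, 1 of 7 SF3, 4 of 11 SR and 3 of 18 hnRNP promoters, and in 6.23% of all. The TATA box as TATAAA was found in 1 of 9 Snrp, 1 of 7 SF3, 2 of 11 SR and 2 of 18 hnRNP promoters, and in 13.6% of all, and a form of the YY1 site, AAGATGG, in 0 of 9 Snrp, 1 of 7 SF3, 0 of 11 SR and 1 of 18 hnRNP promoters, and in 6.34% of all. The median GC content was 55.3% for Snrp, 59.0% for SF3, 69.0% for SR and 61.7% for hnRNP promoters, and 52.7% for all. GC content differs between the classes and all promoters, and its part in the motif counts was not tested.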

How the data were processed

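RNA of 8 libraries (4 TSA, 4 Vehicle) and H3K9ac of 8 libraries were used, and 2 inputs listed in the labels were not analysed here. For RNA, the authors deposited unnormalized counts by Ensembl gene ID. The genome build was mm10, per the submitters' processing notes, and the kit, per the labels, was unstranded. Neither aligner nor counter is given in the sources used here. Unassigned lines held 0 reads. The peak lists were called per library with MACS2 2.1.0.20140616 at a q-value limit of 0.1 and 1 input of 18937878 tags for all 8, per the file headers. Their deposited columns are the pileup signal, the fold enrichment (a ratio) and −log10 p-values and q-values, used here only within a list.

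Genes were matched to RefSeq (GRCm38.p6) for type, span and promoters. Counts were filtered with filterByExpr, scaled by TMM and tested with edgeR 4.0.16 (quasi-likelihood, robust) in R 4.3.3, TSA minus Vehicle, with no covariate. Calls are Benjamini-Hochberg adjusted p under 0.05 over 15000 genes. CPM uses TMM-scaled totals, and log2 CPM a prior count of 2. The SE is the log2 fold change divided by the square root of F. The fit was checked on simulated counts, drawn independently with no difference between libraries beyond depth and the changes put in. That check therefore cannot speak to the spread of Vehicle 1 and Vehicle 4 or to Xist status. Alternatives were RLE factors, no count filter, DESeq2 1.42.0 and limma-voom (limma 3.58.1). Others were a replicate block, lane (as read from the names of the deposited counts) or Xist status as a covariate, removal of a span trend, and leaving out libraries. No replicate pair agreed within sampling noise (chi-square per degree of freedom 2.98 to 32.8).

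The members, lists and tests were chosen with earlier results of these data known. The text names the 6 members of each class with the smallest p, the 2 with the highest mean CPM, the 2 genes of each list with the smallest p, members not tested, and members whose peak count differed by 2 or more between groups (none did). Snrpf, Snrpc, Snrpa1, Snrpa, Sf3a3, Sf3b5, Phf5a, Gemin5, Prpf8 and Khdrbs3 were named after their values were seen.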

Additional observations from a re-analysis of the deposited data

Results flagged for a closer look

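Among 78 groups of 4 libraries examined for the named splicing factor genes, 2 held a library far from the other 3, and chance gives about 1 in 20. Hnrnpd stood at 421.6 CPM in TSA 1 and at 469 to 471 CPM in the other TSA libraries, the gap being 0.973 of the group's range. TSA 1 is the shallowest library, and the rise of Hnrnpd was called without it. Snrpf stood at 5.019 CPM in Vehicle 1 and at 7.54 to 7.92 CPM in the other Vehicle libraries, the gap being 0.870 of the range.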

How the results depend on the processing

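Over 53 named genes and 17 alternatives, 797 of 901 values kept their direction and their side of the threshold, 84 kept the direction but were no longer called, 8 were newly called and 12 changed sign. Of the 24 called genes, 7 were called under every alternative, namely Sf3b6, Sf3a2, Snrpe, Snrpd1, Snrpd2, Snrpb2 and Snrpd3. With RLE factors, DESeq2, limma-voom or lane as a covariate, counts stayed within 1.5 times the main ones, and without a count filter 1 hnRNP fall was called. With Xist status as a covariate, which rests on TSA 4 by construction, there were 1 rise and 6 falls among the splicing factor genes (Snrp 5 falls, SF3 1 rise, hnRNP 0 rises and 0 falls, SR 0 falls), 11 rises and 8 falls among other splicing genes, and positive values for Snrpb (0.0034) and Sf3b5 (0.0858). Without Vehicle 1 and Vehicle 4 there were 3 rises (hnRNP 2, SF3 1), class medians of -0.12 for SR, 0.16 for SF3 and -0.02 for hnRNP genes (0.09 with all libraries), and changed signs for Hnrnpa2b1 (-0.0091), Sf3b1 (0.0254) and Sf3a3 (-0.24). With the span trend removed there was 1 hnRNP fall, the medians were 0.20 for hnRNP and -0.44 for Snrp genes, and Srsf1 (0.0034) and Sf3b5 (0.0784) changed sign. Counting Snrp and SF3 genes together gave a contrast of -0.31 with SR and hnRNP genes. The cause of these differences was not tested.

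Leaving out 1 RNA library at a time gave 4 to 11 rises and 13 to 18 falls. Of all tested genes, 25.1 to 36.7% were called in these fits. Snrp falls stayed at 9, SR falls were 2 to 6, hnRNP rises 2 to 6, hnRNP falls 1 to 2 and SF3 rises 2 to 5. Class medians ranged from -0.31 (without Vehicle 2) to -0.15 (without Vehicle 1) for SR, 0.01 (without Vehicle 4) to 0.19 (without Vehicle 2) for hnRNP, 0.28 to 0.41 for SF3 and -0.62 to -0.51 for Snrp genes. Signs changed for 3 genes that were not called: Sf3a3 ranged from -0.0799 (without Vehicle 4) to 0.15 (without Vehicle 2), Sf3b1 from -0.0988 (without Vehicle 3) to 0.0088 (without Vehicle 1) and Hnrnpa2b1 from -0.0032 (without Vehicle 4) to 0.096 (without Vehicle 2). Of the 46 genes with a known start, 45 had a peak in all lists kept when 1 list was left out or the window changed, and 37 with a stricter q. Counting a peak at either annotated end, an alternative chosen after seeing the data that takes in all 52 genes, gave 47. By that count Hnrnpf, Hnrnph1 and Hnrnpa1l2-ps2 had no peak in any list. Hnrnpul1 had one in 3 TSA and 3 Vehicle lists, and Srsf1 in 3 TSA and 4 Vehicle lists.

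The replicate number of the titles does not pair the libraries by the labels, and deviations of same-numbered libraries correlated at 0.197, 0.124, 0.118 and 0.0756. TSA 3 correlated best with Vehicle 2. With the replicate block there were 10 rises and 16 falls among the splicing factor genes, 9 of the falls in Snrp genes, and 5342 of all tested genes were called. Whole-gene counts carry no isoform, so splicing itself was not measured, and precision is lowest for Snrpf.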

Other observations

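The splicing factor genes together took 1.22 to 1.33% of all counts in TSA libraries and 1.32 to 1.40% in Vehicle libraries, ranges that overlapped. Summed over the class, SR transcripts made up 2524 to 2785 CPM in TSA libraries and 2828 to 3514 CPM in Vehicle libraries, and hnRNP transcripts 7473 to 8233 CPM in TSA libraries and 6932 to 8346 CPM in Vehicle libraries. SF3 transcripts made up 1901 to 2002 CPM in TSA libraries and 1598 to 1933 CPM in Vehicle libraries. Levels are not divided by transcript length, so these sums weigh long transcripts more.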
